A study of Mus musculus with 40 samples.

Results

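The genes described here encode subunits of the receptors for glutamate and GABA, the main excitatory and inhibitory transmitters of the brain. They were taken by name as 33 receptor genes of 7 families, namely 3 AMPA, 7 NMDA, 5 kainate, 1 delta and 7 metabotropic glutamate receptor genes and 8 GABA-A and 2 GABA-B receptor genes, out of 20807 autosomal protein-coding genes. The rule used names and no measured value, but the genes were chosen with earlier results of these data known. A pair of histone marks were profiled by ChIP-seq in oligodendrocyte progenitor cells (OPCs) grown from mice of postnatal day 5 to 7. H3K4me3 marks the starts of active or poised genes, and H3K27me3 is laid down by Polycomb repressive complex 2 at silenced ones. K27M cultures came from AMGFAP-Cre;K27M mice, in which an H3-3a allele with the lysine-to-methionine change at position 27 is switched on by Cre under the human GFAP promoter in neural stem and progenitor cells, and controls came from littermates whose own alleles the labels do not list. Cells were pooled over animals by region and genotype, immunopanned for PDGFRα, kept in proliferation medium and not differentiated. There were 5 matched culture pairs, 2 from brainstem (cultures 59 and 61) and 3 from telencephalon, labelled cortex (cultures 59, 60 and 61), which gave 10 libraries of each mark, and values below follow that order of cultures. The files are lists of peaks, called for each library against its own input, and hold no read counts, so spread could be read only between libraries. The paper lists read totals that differ between libraries, and the part of depth in the results was not tested.

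AMPA, kainate and delta receptors are or resemble fast glutamate-gated channels, NMDA receptors are calcium-permeable channels that need both glutamate and glycine, and metabotropic receptors signal through G proteins. GABA-A receptors are chloride channels built of α, β and γ subunits, and GABA-B receptors are G protein-coupled dimers. OPCs are known to receive synaptic input from neurons and to express AMPA and GABA-A receptors, and H3.3 K27M is known to inhibit Polycomb repressive complex 2. A promoter under both marks is called bivalent. In pooled cells, both marks on the same chromosomes and each mark in a different share of the cells cannot be told apart.

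The H3K27me3 lists held 12715 to 64808 peaks in controls and 4739 to 15753 in K27M cultures, and the H3K4me3 lists 20961 to 31200 in all libraries. Telencephalon control 59 stood apart, with 12715 H3K27me3 peaks against 25632 or more in every other control. The length of the lists moved with genotype, and its part in the results was not tested beyond the comparison at equal numbers of peaks given below. The 6 OPC markers examined (Pdgfra, Cspg4, Sox10, Olig1, Olig2 and Ptprz1) held H3K4me3 in 10 of 10 libraries and H3K27me3 in 0. Of 6 microglial and endothelial markers, 5 held H3K4me3 in 0 of 10 libraries and Cldn5 did in 5, while 4 of 4 neuronal markers held it in 10 of 10. The neuronal marker Rbfox3 also held H3K27me3 in 5 controls and 5 K27M cultures. Syt1 and Elavl4 held H3K27me3 in 4 controls each and Snap25 in 2, all of them in 0 K27M cultures. Among 3 astrocyte markers, Gfap and Aldh1l1 each held H3K4me3 in 6 libraries and Slc39a12 in 0. The part of other cells in the results was not tested.

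Promoter sequences of 4 receptor genes show the range of starting points for the marks, with every CpG, the dinucleotide enriched in CpG islands, in capitals. Each runs 5′ to 3′ along the gene from 250 bases before to 50 bases after the RefSeq start, on GRCm38.p6. They are Gabra5 (chr7:57510010-57510309, minus strand), the GABA-A α5 gene, with the most promoter H3K27me3 left in K27M cultures; Gabrg3 (chr7:57387166-57387465, minus strand), the γ3 gene beside it, with the largest loss; and Grik3 (chr4:125490446-125490745, plus strand), a kainate receptor gene, and Gabrg1 (chr5:70842568-70842867, minus strand), the γ1 gene, both with H3K4me3 in all libraries and H3K27me3 in none.
Gabra5: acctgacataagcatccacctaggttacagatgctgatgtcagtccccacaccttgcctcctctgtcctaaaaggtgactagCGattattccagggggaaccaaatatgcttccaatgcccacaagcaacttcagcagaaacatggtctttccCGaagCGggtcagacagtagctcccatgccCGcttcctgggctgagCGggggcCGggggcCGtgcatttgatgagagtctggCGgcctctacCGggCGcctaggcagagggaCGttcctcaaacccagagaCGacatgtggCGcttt
Gabrg3: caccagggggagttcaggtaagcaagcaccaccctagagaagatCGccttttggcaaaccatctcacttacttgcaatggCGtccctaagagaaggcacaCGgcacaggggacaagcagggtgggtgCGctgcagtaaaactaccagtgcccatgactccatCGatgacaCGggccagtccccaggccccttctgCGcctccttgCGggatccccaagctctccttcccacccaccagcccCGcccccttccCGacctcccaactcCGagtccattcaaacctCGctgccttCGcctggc
Grik3: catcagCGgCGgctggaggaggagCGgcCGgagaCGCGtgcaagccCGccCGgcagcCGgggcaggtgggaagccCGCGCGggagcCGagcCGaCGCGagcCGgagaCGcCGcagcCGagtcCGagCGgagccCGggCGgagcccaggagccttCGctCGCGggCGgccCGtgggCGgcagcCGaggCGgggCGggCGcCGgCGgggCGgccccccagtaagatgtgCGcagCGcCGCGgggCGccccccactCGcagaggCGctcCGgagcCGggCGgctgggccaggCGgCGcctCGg
Gabrg1: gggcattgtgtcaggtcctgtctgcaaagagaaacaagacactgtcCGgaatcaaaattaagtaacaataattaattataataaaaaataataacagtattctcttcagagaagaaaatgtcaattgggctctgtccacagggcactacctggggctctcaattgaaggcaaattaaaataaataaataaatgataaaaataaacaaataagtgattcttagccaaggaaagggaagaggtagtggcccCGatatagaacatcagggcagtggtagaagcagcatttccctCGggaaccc
Gabra5 and Gabrg3 each had 13 CpGs, although H3K27me3 was kept at one and absent from nearly every K27M library at the other. Grik3 had 50 CpGs and Gabrg1 had 3, with the same combination of marks. Sequences were matched for 25 of the 33 genes, with a median of 15 CpGs (range 2 to 50), against a median of 15 over 15683 matched autosomal genes. The 11 matched genes with H3K27me3 in at least 1 K27M library had a median of 13 CpGs, the 7 with it in controls alone 18, and the 7 with it in no library 17, and the ranges of these groups overlapped. Not matched were Gria1, Grin2a, Grin2b, Grin3a, Grik1, Grid1, Grm4 and Grm5.

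In control OPCs the receptor genes divided into a set free of H3K27me3 and a large bivalent set. Promoters were taken as 2000 bp upstream to 1000 bp downstream of each annotated transcript start, and control peaks of a region were combined by the rule of the study, in which a peak must recur in at least 2 cultures and pass a combined p. In brainstem controls 14 of 33 genes (42.4%) were bivalent, against 9.67% of all autosomal protein-coding genes. In telencephalon controls 19 of 33 (57.6%) were bivalent, against 14.3% of all genes. That count rests on controls 60 and 61: it was 5 without culture 60, 5 without culture 61 and 19 without culture 59. No member carried H3K27me3 without H3K4me3 in either region, against 3.51% of all genes in brainstem and 3.19% in telencephalon. Only Gabra6, the α6 subunit known from cerebellar granule cells, carried neither mark. That is 3.03% of members, against 34.0% of all genes in brainstem and 31.6% in telencephalon.

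The families were unequal in this respect. Bivalent in both regions were 6 of 7 NMDA genes (Grin1, Grin2a, Grin2b, Grin2c, Grin2d and Grin3b), 5 of 7 metabotropic genes (Grm2, Grm4, Grm6, Grm7 and Grm8), the GABA-A genes Gabra5 and Gabrg3, and the GABA-B gene Gabbr2. The bivalent metabotropic genes all encode receptors of groups II and III, which lower cyclic AMP. None of the 5 kainate genes, nor the delta gene Grid1, nor Grm5, the only member of metabotropic group I, was bivalent in either region. H3K4me3 in every library with H3K27me3 in none was found at 9 members (27.3%), against 39.9% of all genes: Gria2, Gria4, Grik1, Grik3, Grik4, Grik5, Grid1, Grm5 and Gabrg1.

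The H3K27me3-free genes each carried H3K4me3 at 1 promoter region, and several had others without it. At Grik3 it covered 82.5% to 100% of promoter bases in the 10 libraries, at Gabrg1 75.8% to 90.4%, and at Gria2, the AMPA subunit that limits calcium entry, 64.3% to 76.6%. The longest H3K4me3 peak at Gria2 measured 4512 to 7277 bp and at Grik3 4183 to 9317 bp. At Grik1, Grik4, Grik5, Grid1 and Grm5 the mark covered 16.7% to 29.4% of all promoter bases, but these genes have 2 or 3 promoter regions of which 1 was marked. In the marked region the group means were 61.9% to 71.8% at Grik1, 76.6% to 81.1% at Grik5, 74.6% to 80.5% at Grid1, up to 51.5% at Grik4 and up to 50.2% at Grm5. The longest H3K4me3 peak at Grm5 measured 4540 to 6633 bp, which overlaps the range at Gria2. The heat map of promoter coverage shows both marks side by side.

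**Figure D1:**
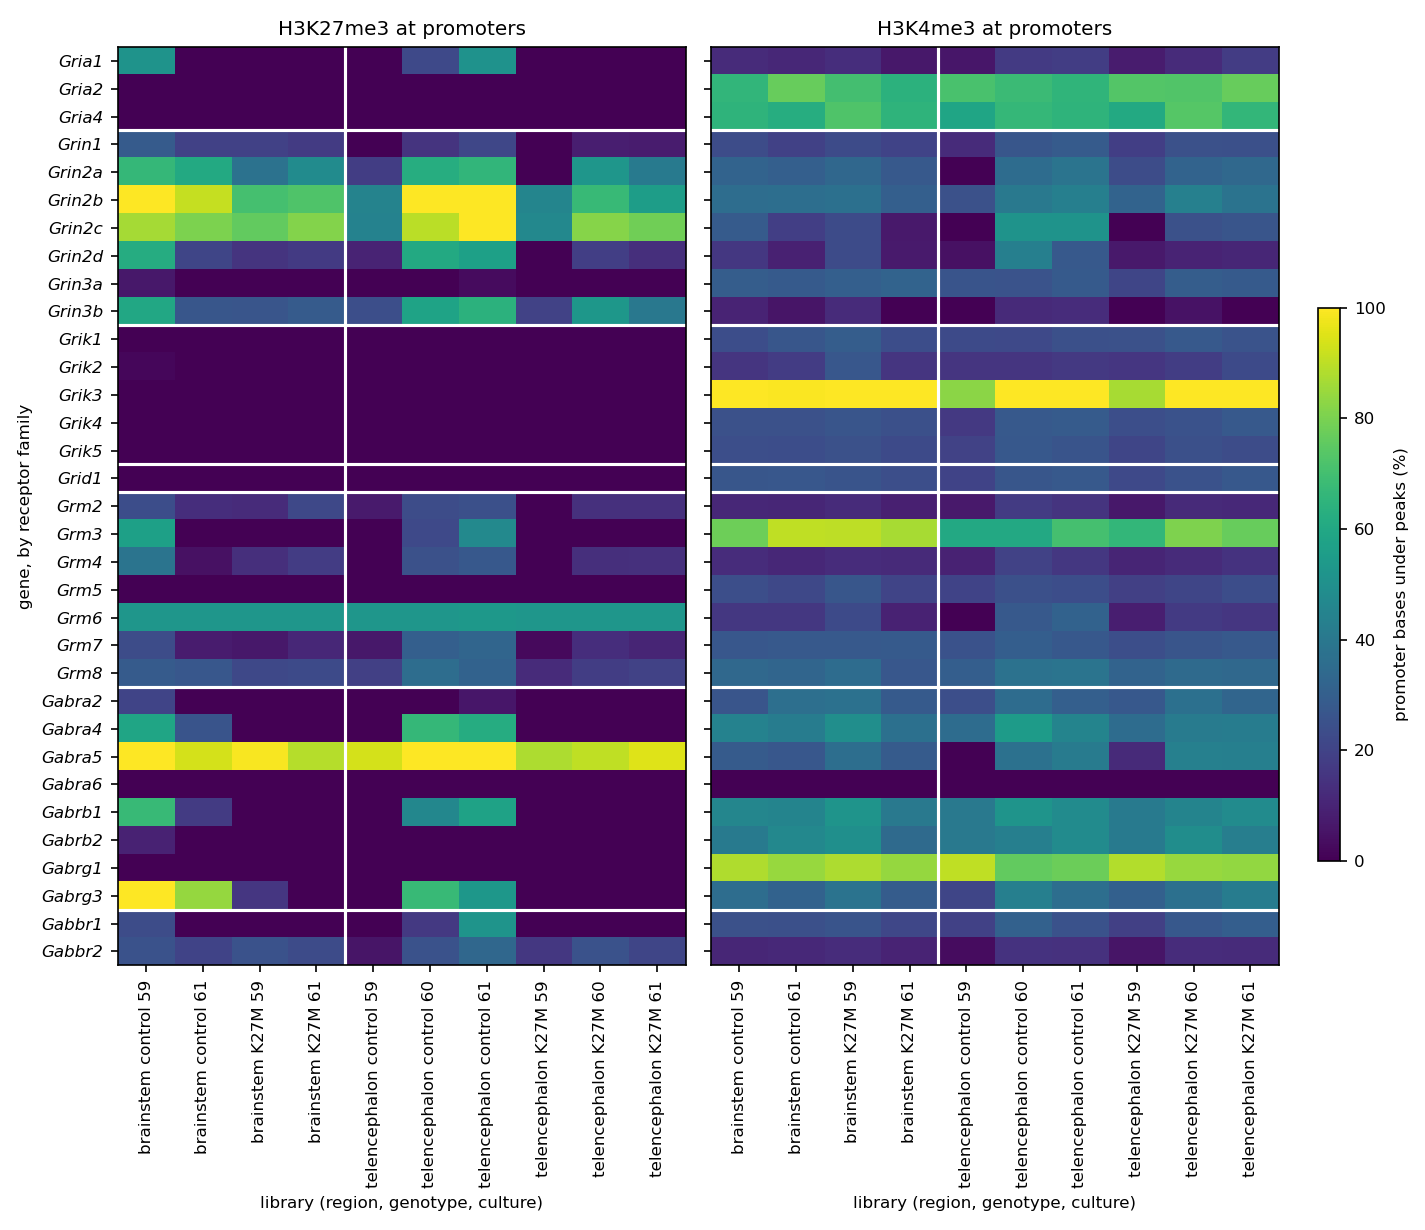
Percent of promoter bases under H3K27me3 peaks (left) and H3K4me3 peaks (right), colour from 0 to 100%, for 33 receptor genes (rows, white lines between the 7 families) in 10 libraries each (columns, brainstem left of the white line). H3K27me3 is near absent at kainate genes, present in most libraries at the NMDA genes other than Grin3a, and missing from K27M columns at Gria1, Grin3a, Grm3, Gabra4, Gabrb1 and Gabbr1 among others, where H3K4me3 is present.

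The first comparison asked how promoter H3K27me3 at the receptor genes differed between K27M cultures and their matched controls. In controls 23, 16, 11, 19 and 21 of the 33 genes had a promoter H3K27me3 peak, and in the matched K27M cultures 14, 13, 8, 13 and 13 did. K27M was lower in 5 of 5 pairs, by 5.8 ± 2.77 genes (SD, n = 5 pairs), which is 17.6 ± 8.41 percentage points. Over all autosomal protein-coding genes the difference was 12.2 ± 6.96 percentage points in the same direction. Fewer cells with the mark and less mark per cell cannot be told apart in such pools. No receptor gene held a peak in a K27M culture that its matched control lacked, in any pair. Such genes were rare at large, at 35, 94, 55, 18 and 17 of 20807 autosomal protein-coding genes in the 5 pairs.

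Read as the share of control peaks that the matched K27M culture also held, the receptor genes stood above the genome. Of the 23, 16, 11, 19 and 21 genes with a control peak, the same gene kept one in 60.9%, 81.2%, 72.7%, 68.4% and 61.9% of cases, a mean of 69.0% ± 8.38 (SD, n = 5 pairs). For all genes the shares were 34.9%, 61.7%, 60.5%, 47.2% and 35.3%, a mean of 47.9% ± 13.0, and the receptor genes lay higher in each of the 5 pairs. This is a description, since the genes were chosen with earlier results known.

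**Figure D2:**
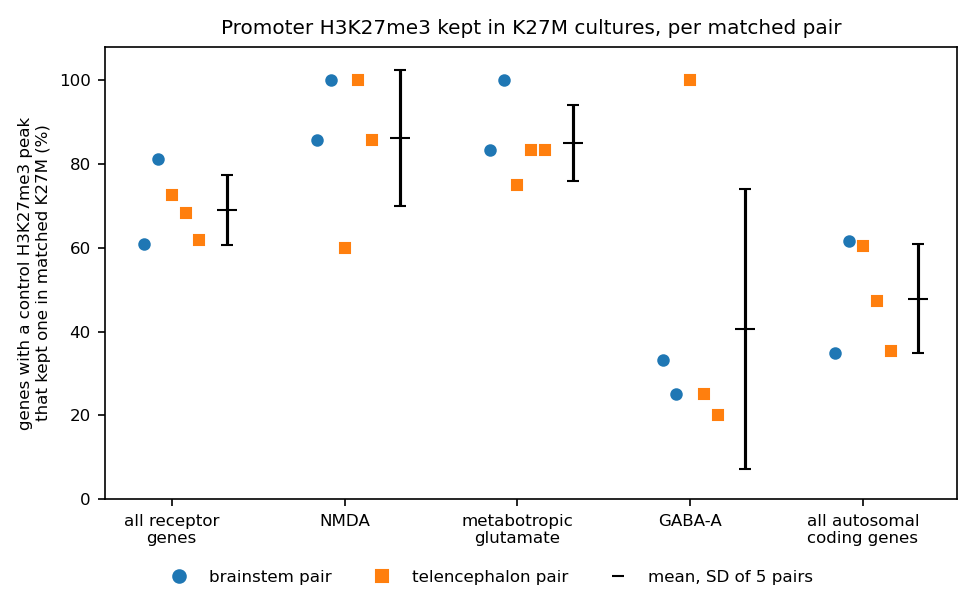
Percent of genes carrying promoter H3K27me3 in a control culture that also carried it in the matched K27M culture (y axis), for all 33 receptor genes, 3 families and all autosomal protein-coding genes. Each point is 1 of 5 matched pairs (circles brainstem, squares telencephalon), and bars give the mean and SD. Receptor genes lie above all genes in each pair, and the NMDA and metabotropic points lie above the GABA-A points in every pair but telencephalon 59, where a single GABA-A gene had a control peak.

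NMDA and metabotropic genes accounted for most of what was kept. NMDA genes kept the mark at 86.3% ± 16.3 of genes with a control peak and metabotropic genes at 85.0% ± 9.13, against 40.7% ± 33.5 for GABA-A genes (SD, n = 5 pairs). The GABA-A mean was raised by telencephalon pair 59, in which Gabra5 alone had a control peak and kept it. In the other 4 pairs GABA-A genes kept 20.0% to 33.3%. Several GABA-A genes are neighbours on the chromosome and 2 share a promoter region, as described below, so they are not independent genes.

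Genes kept and lost were also read against the bivalent state. Of the 14 genes bivalent in brainstem controls, 13 (92.9%) still carried H3K27me3 at the promoter in each brainstem K27M culture, against 72.8% of all genes bivalent there, and none was without a peak in any K27M culture, against 17.3%. Gabrg3 was the exception, with a short peak in K27M 59 alone. Of the 19 bivalent in telencephalon controls, 8 (42.1%) kept a peak in every K27M culture, against 40.2% of all bivalent genes, and 6 (31.6%) had none in any, against 27.1%. The telencephalon shares were therefore close to those of the genome. The 5 genes with a peak in some telencephalon K27M cultures were Grin1, Grin2a, Grin2d, Grm2 and Grm4. Each lacked a peak in K27M 59 alone, the library with the shortest H3K27me3 list (4739 peaks). The telencephalon share kept in every K27M culture thus rests on that library, and the shares of the 2 regions are not directly comparable.

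The 6 genes without a peak in any telencephalon K27M culture were the AMPA gene Gria1, the metabotropic gene Grm3, the GABA-A genes Gabra4, Gabrb1 and Gabrg3, and the GABA-B gene Gabbr1. Of the receptor genes with a peak in at least 1 control, 9 of 23 (39.1%) had a peak in no K27M library of either region, against 61.9% of all genes: Gria1, Grin3a, Grik2, Grm3, Gabra2, Gabra4, Gabrb1, Gabrb2 and Gabbr1. Of genes with a peak in every brainstem control, 2 of 16 (Gabra4 and Gabrb1, 12.5%) had none in either brainstem K27M culture, against 31.6% of all such genes. The like count in telencephalon was 0 of 11, against 14.9%, and telencephalon control 59 itself lacked peaks at Gria1, Grm3, Gabra4, Gabrb1, Gabrg3 and Gabbr1.

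Gabrg3 showed the largest mean difference. The GABA-A γ3 gene lies at chr7:56716465-57387188, and its promoter region at chr7:57385872-57389188 also holds the start of an antisense transcript. H3K27me3 covered 100%, 84.1%, 0%, 67.4% and 52.8% of its promoter bases in controls and 15.7%, 0%, 0%, 0% and 0% in K27M cultures. The libraries with the mark did not overlap between genotypes except at telencephalon control 59, which was also at 0. The mean difference was -57.7 percentage points (SD 34.8, n = 5 pairs; exact sign-flip test, both sides, p = 0.125). H3K4me3 was present in all 10 libraries, at 21.0% to 43.3% of bases.

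Gabra4 and Gabrb1, the α4 and β1 genes, lie head to head on chromosome 5 and share a promoter region, and at 4 of 5 controls the same H3K27me3 peak was counted for both. It covered 58.7%, 26.1%, 0%, 66.7% and 61.7% of Gabra4 promoter bases in controls and 0% in each of the 5 K27M cultures. At Gabrb1 the control values were 67.3%, 17.6%, 0%, 46.3% and 57.6%, and K27M values were again 0. Their mean differences of -42.6 (SD 28.7) and -37.8 (SD 28.2) percentage points are thus largely one observation (p = 0.125 each, exact sign-flip test). Gabrb1 has a further promoter at chr5:71697932-71700931, where 2 controls and no K27M library had H3K27me3.

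Gria1, Grm3 and Gabbr1 followed the same course with fewer controls involved. Gria1, the GluA1 subunit of AMPA receptors, had 51.5%, 0%, 0%, 22.1% and 50.9% of promoter bases under H3K27me3 in controls. Grm3, which encodes mGluR3, had 56.8%, 0%, 0%, 22.1% and 47.0%. Gabbr1, the ligand-binding subunit of GABA-B receptors, had 23.3%, 0%, 0%, 16.4% and 51.6%. All 3 were at 0 in the 5 K27M cultures, so in each case 3 of 5 pairs differed and 2 pairs were tied at 0 (p = 0.25 each, exact sign-flip test), and the differences rest on brainstem control 59 and telencephalon controls 60 and 61. Gria1 and Gabbr1 were named after their values were seen.

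In telencephalon the lost genes were those with weak control peaks. Fold enrichment over input, as the authors' peak caller gave it, averaged 2.78 to 3.26 over telencephalon controls 60 and 61 at the 6 lost genes. It averaged 5.49 to 11.5 at the 8 genes kept in every telencephalon K27M culture, and 3.07 to 6.63 at the 5 genes kept in some, so the lost and the fully kept genes did not overlap. Over all bivalent genes the medians were 3.04 for the 743 lost genes with a peak in both controls, 4.09 for 966 intermediate genes and 7.39 for 1195 kept genes, with overlapping ranges. The order seen at the receptor genes in telencephalon was thus that of bivalent genes at large. In brainstem lost and kept genes overlapped. In brainstem control 59 Gabbr1, with no K27M peak, had 4.28. Grin1, kept in both brainstem K27M cultures, had 2.76, and the other genes kept in both had 4.49 or more. In brainstem control 61 Gabrg3, without a peak in matched K27M, had 3.08, against 2.56 at Grm4, which kept one.

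Genes that kept the mark kept it to different extents. Gabra5 (chr7:57407672-57510059) had 100%, 93.4%, 93.4%, 100% and 100% of promoter bases under H3K27me3 in controls and 98.8%, 89.0%, 87.5%, 90.4% and 95.3% in K27M cultures. It was lower in 5 of 5 pairs by a mean of 5.15 percentage points (SD 3.04, exact sign-flip p = 0.0625, the smallest p that 5 pairs allow). The difference lay at the edges of the promoter region: with windows of 1000 bp on either side of each start, or with the best covered single window, it was 0 in each pair. Gabra5 and Gabrg3 lie next to each other on the minus strand of chromosome 7, and their K27M values of 87.5% or more and of 15.7% or less did not overlap.

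Grin2b, the NMDA subunit of the immature brain, carried the longest H3K27me3 peaks of the genes with the mark in all libraries. Its promoter bases were covered at 100%, 91.3%, 44.7%, 100% and 100% in controls and 70.6%, 72.6%, 45.3%, 67.3% and 55.5% in K27M. K27M was lower in 4 of 5 pairs (mean difference -24.9, exact sign-flip p = 0.125; -4.01 with the best covered single window). The longest single peak at the promoter measured 36.2, 23.3, 18.9, 27.2 and 29.2 kb in controls and 20.7, 20.6, 6.77, 17.4 and 7.49 kb in K27M, shorter in 5 of 5 pairs. In telencephalon K27M cultures 59 and 61 the marked stretch was broken into several peaks, with a further one at 6647 to 11337 bp and at 6442 to 13630 bp downstream of the Grin2b start, so the peak length understates its extent there. Its promoter region, at chr6:136170890-136175511, also holds an antisense start.

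**Figure D3:**
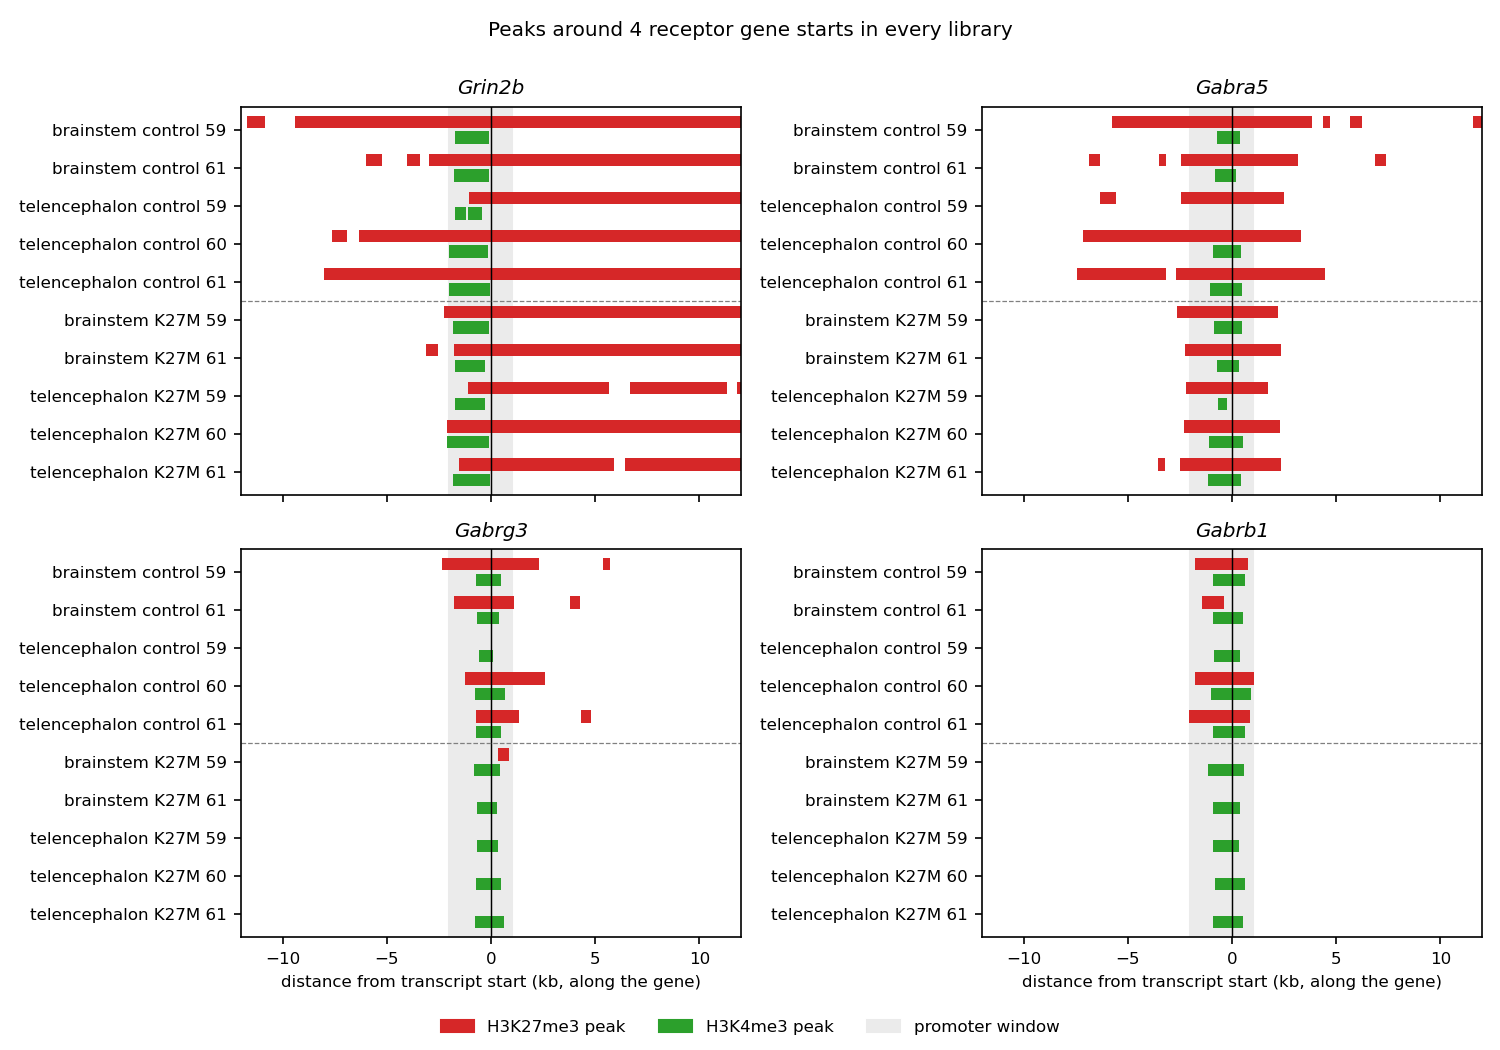
Peaks within 12 kb of the transcript start with the most H3K4me3 at Grin2b, Gabra5, Gabrg3 and Gabrb1 (x axis, kb along the gene; bars running past the edge are cut there), one row per library, controls above the dashed line. Red bars are H3K27me3 peaks, green bars H3K4me3 peaks, and grey the promoter window. At Grin2b and Gabra5 red bars lie over the start in the 5 K27M rows, at Grin2b broken into several in 3 of them, whereas at Gabrg3 1 short bar and at Gabrb1 none is left, with green bars in place.

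Grin2a, Grin2d and Grm8 were, with Gabra5, the 4 members lower in K27M in 5 of 5 pairs, which is 17.4% of the 23 tested and close to the 13.6% of all tested genes. The count was 9 without telencephalon culture 59 and 7 without brainstem culture 61. With the best covered single window Grm8 alone was lower in 5 of 5 pairs, and with peaks of at least 3-fold enrichment Gabra5 alone was. No member was higher in 5 of 5 pairs, against 0.108% of all genes. Grin2a, the GluN2A subunit of mature synapses, had 66.8%, 60.7%, 18.3%, 62.5% and 65.8% in controls and 37.8%, 48.2%, 0%, 52.4% and 40.6% in K27M (mean difference -19.0, SD 8.05). Its groups overlapped only through culture 59 of the telencephalon.

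Grin2d, which encodes GluN2D, had 62.1%, 21.0%, 9.91%, 60.7% and 56.9% in controls and 15.1%, 16.9%, 0%, 18.7% and 13.4% in K27M (mean difference -29.3, SD 20.5). Its 3 promoters behaved differently. At chr7:45866130-45869129, where H3K4me3 was found in 10 libraries, H3K27me3 averaged 63.6% in brainstem and 60.6% in telencephalon controls and 0% and 4.07% in K27M. At chr7:45869430-45872429, which overlaps a promoter of Kdelr1, the averages were 61.0% and 66.8% in controls and 48.0% and 28.0% in K27M. A gene counted as keeping the mark could thus lose it at one start and keep it at another.

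Grm8, encoding mGluR8, had 28.6%, 27.1%, 19.1%, 35.7% and 31.4% in controls and 21.7%, 22.4%, 12.4%, 18.3% and 19.6% in K27M (mean difference -9.53, SD 5.14, and -25.8 with the best covered single window). For Grin2a, Grin2d, Grm8 and Gabra5 alike the sign-flip p was 0.0625 and the adjusted p, by Benjamini-Hochberg over 7422 genes, was 0.386. With 32 sign arrangements no gene can pass 0.05, and 0 of 7422 genes did before or after adjustment. In an exact permutation of genotype within regions with no replicate block, 593 of 7422 genes had an unadjusted p under 0.05, of which 1 was a member (Grm8, p = 0.0333), and 0 passed after adjustment (Grm8 adjusted p = 0.293).

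**Figure D4:**
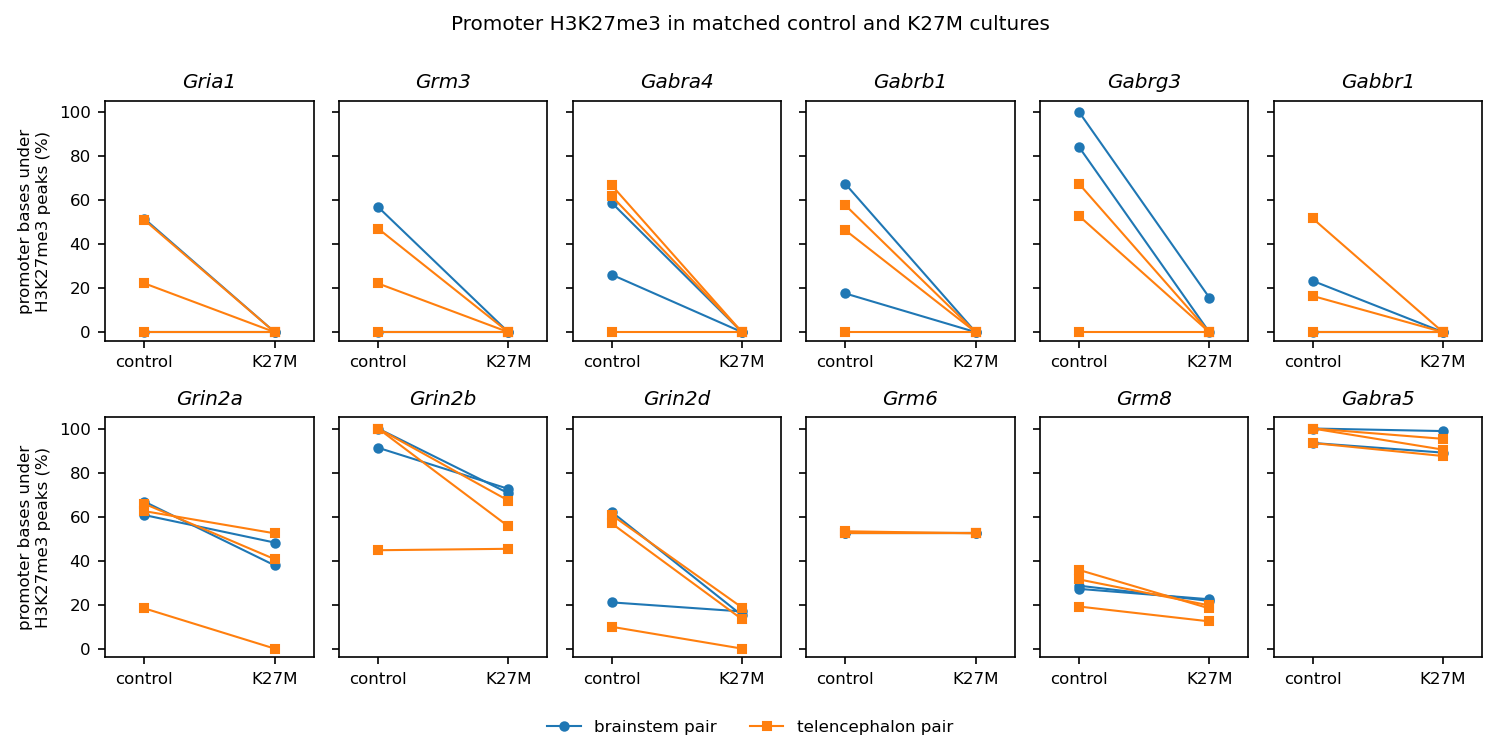
Percent of promoter bases under H3K27me3 peaks (y axis) in control and matched K27M cultures for 12 receptor genes, 1 line per pair (circles brainstem, squares telencephalon). The upper row holds the 6 genes with no peak in any telencephalon K27M culture, and the lower row 6 genes with a peak in most or all K27M cultures, where Grm6 is flat near 52.4% and Gabra5 stays at 87.5% or above.

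H3K27me3 was present in all 10 libraries at 8 receptor genes (24.2%), against 6.01% of all genes: Grin2b, Grin2c, Grin3b, Grm6, Grm7, Grm8, Gabra5 and Gabbr2. The longest promoter peak was shorter in K27M in 5 of 5 pairs at 4 of the 8 (Grin2b, Grm7, Grm8 and Gabra5), against 46.5% of the 1250 genes with the mark in every library. Fold enrichment was higher in K27M in 5 of 5 pairs at 3 of the 8 (Grin2c, Grm6 and Gabbr2), against 42.2%, and higher on average at 6 of the 8, against 73.8%. The receptor genes were here near the background of such genes.

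Grm6, known for its part in retinal ON bipolar cells, was the plainest example. Its H3K27me3 covered 52.4% of promoter bases in 9 libraries and 53.3% in telencephalon control 61, because 1 of its 2 promoter regions was covered in full in all 10. Fold enrichment there was 8.14, 7.52, 3.12, 14.3 and 8.79 in controls and 14.9, 15.5, 5.20, 16.9 and 15.6 in K27M, higher by 5.27 ± 2.70 (SD, n = 5 pairs). Fold enrichment is relative within each library and does not measure the amount of the mark between libraries. Grin2c, the NMDA subunit of cerebellar and thalamic cells, had a fold enrichment higher by 3.93 ± 1.73 in K27M, and its promoter region overlaps that of Fdxr. Grm6, Grin2c and Gabbr2 were named after their values were seen.

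**Figure D5:**
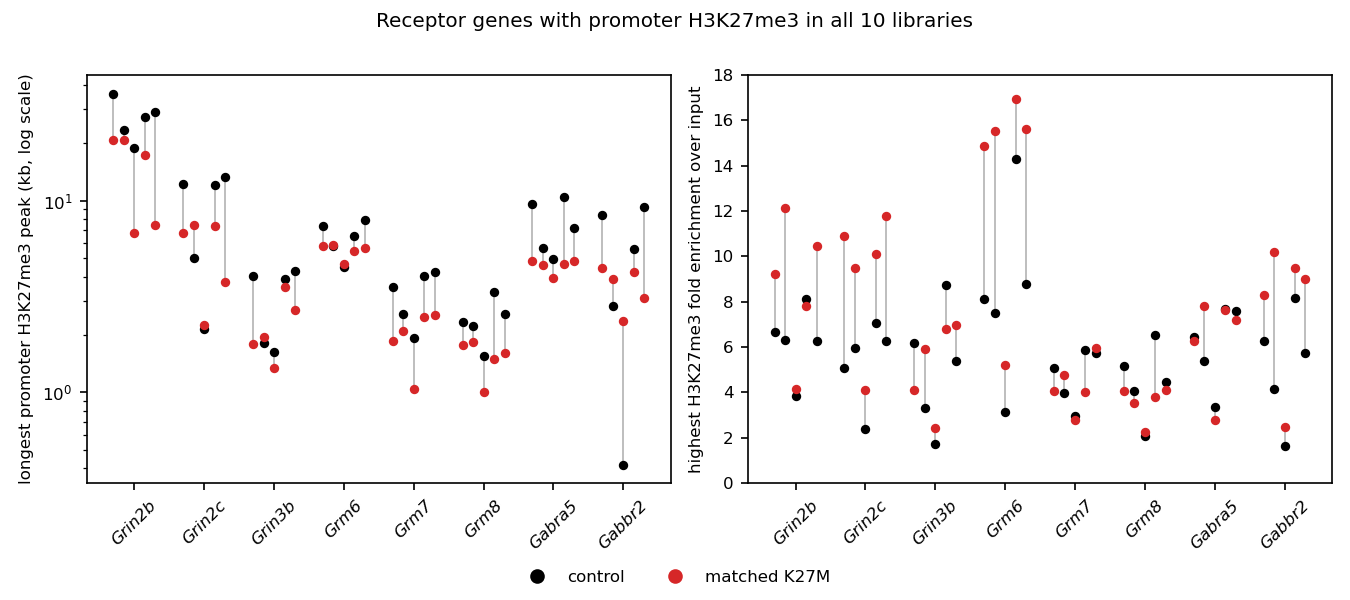
Length of the longest promoter H3K27me3 peak (left, kb, log scale) and highest fold enrichment over input (right) at the 8 receptor genes with the mark in all 10 libraries. Black points are controls, red points the matched K27M cultures, joined within a pair (order from left to right brainstem 59 and 61, telencephalon 59, 60 and 61). Red points lie below black in length in 5 of 5 pairs at Grin2b, Grm7, Grm8 and Gabra5, and above black in fold in 5 of 5 pairs at Grin2c, Grm6 and Gabbr2.

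GABA-A genes lie in clusters, and H3K27me3 was examined between the outer ends of the listed genes on each chromosome with more than 1 of them, a choice made after values were seen. Between the ends of Gabrg1 and Gabrb1 on chromosome 5 (chr5:70751047-72149037, 1.40 Mb, also holding Gabra2 and Gabra4), controls had 5, 1, 0, 2 and 5 H3K27me3 peaks and the 5 K27M cultures none. The peaks in controls covered at most 8.72 kb of this span. Between Gabrg3 and Gabra5 (chr7:56716465-57510059, 0.794 Mb) controls had 11, 6, 2, 3 and 5 peaks over 17.3, 12.4, 6.19, 11.6 and 11.7 kb. In K27M there were 2, 1, 1, 1 and 1 peaks over 3.41, 3.04, 2.40, 3.00 and 3.02 kb, with Gabra5 keeping the mark in each library. Between Gabrb2 and Gabra6 (chr11:42306437-42629028, 0.323 Mb) peaks covered 13.7, 3.76, 6.74, 8.59 and 8.39 kb in controls and 0, 2.99, 0, 0.767 and 2.21 kb in K27M. K27M was lower in 5 of 5 pairs here, although at the promoters themselves only Gabrb2 had a peak, and in 1 control alone. Over the whole genome H3K27me3 peaks covered 102, 49.3, 26.5, 96.2 and 152 Mb in controls. In the matched K27M cultures they covered 22.4, 29.8, 13.3, 41.4 and 21.4 Mb, likewise lower in 5 of 5 pairs.

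The K27M comparison depended in part on the length of the peak lists. With each H3K27me3 list reduced to its 4739 peaks of smallest p, the length of the shortest, controls had 16, 11, 8, 12 and 16 receptor genes with a peak and K27M cultures 12, 12, 8, 11 and 12. Over all genes the shares were then 13.1%, 9.77%, 7.61%, 12.6% and 13.0% in controls and 9.17%, 8.95%, 6.53%, 8.80% and 8.94% in K27M, lower in 5 of 5 pairs. The mean difference for the receptor genes was -1.6 genes (SD 2.30), with K27M lower in 3 of 5 pairs and higher in 1. Promoter bases remained lower in 5 of 5 pairs, by 5.82 ± 5.70 percentage points against 10.8 ± 7.68 for the full lists. The differences at equal numbers were -11.9, -0.429, -0.0828, -5.32 and -11.3 percentage points, so those of brainstem 61 and telencephalon 59 were close to none. Over all genes the full lists gave a difference of 4.79 ± 3.23 percentage points, also lower in 5 of 5 pairs. Of the 6 lost genes, Gria1 and Grm3 had no control peak left, Gabra4, Gabrb1 and Gabbr1 had 2 each, Gabrg3 had 1 (mean difference -20 percentage points), and none had a K27M peak. Without telencephalon pair 59 the full lists gave a mean of -6.5 genes.

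H3K4me3 was examined at the same promoters in the same cultures. It was present in all 10 libraries at 27 of 33 genes (81.8%), against 59.1% of all genes, and in K27M 32, 31, 30, 32 and 31 genes had a peak against 32, 32, 27, 32 and 32 in controls. The mean difference was 0.2 ± 1.64 genes (SD, n = 5 pairs), within the spread between pairs. The 9 genes with an H3K27me3 peak in controls and none called in K27M all had H3K4me3 in all 10 libraries. The share over all genes of that kind was not computed. Some of the 9 had little to lose: Grik2 and Gabrb2 had an H3K27me3 peak in 1 control each, of 2.35-fold and 2.09-fold enrichment. Telencephalon control 59 lacked H3K4me3 at Grin2a, Grin2c, Grin3b, Grm6 and Gabra5, at each of which telencephalon controls 60 and 61 had it.

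At single genes, Gria4 and Gabra5 had more promoter bases under H3K4me3 in K27M in 5 of 5 pairs, which is 6.25% of the 32 tested and near the 5.42% of all tested genes. None had less in 5 of 5, against 0.702%. Gria4, the GluA4 subunit, had 65.1%, 62.5%, 58.9%, 66.4% and 65.0% in controls and 72.6%, 65.0%, 60.7%, 73.5% and 66.2% in K27M. Gabra5 had 28.9%, 27.2%, 0%, 37.5% and 41.6% in controls and 36.0%, 28.6%, 11.8%, 43.7% and 43.1% in K27M. Both had p = 0.0625 in the exact sign-flip test and an adjusted p of 0.837, with 0 of 14109 genes under 0.05 before or after adjustment. With no replicate block 356 genes had an unadjusted p under 0.05, of which 0 were members, and 0 passed adjustment.

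Where both marks were called, they lay on the same bases at some genes and side by side at others. At Gabra5 the H3K27me3 peaks covered 100% of the H3K4me3 bases in all 9 libraries that had both, and at Grin2c in 8 of 8. At Grm8 they covered 60.0%, 47.2%, 25.7%, 62.7% and 62.7% in controls and 42.6%, 32.1%, 34.2%, 44.1% and 36.3% in K27M. At Gabrg3 they covered 100%, 100%, 0%, 100% and 100% in controls and 8.50% or less in K27M. H3K4me3 bases at Gabrg3 were thus mostly free of H3K27me3 calls in K27M and mostly under them in controls.

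The second comparison set brainstem against telencephalon controls. With 2 cultures against 3, the smallest two-sided p is 0.2, so values are given without a test. Bivalent in telencephalon alone were 5 of 33 genes (15.2%), against 5.18% of all genes, and in brainstem alone 0, against 0.524%. The 5 (Gria1, Grm3, Gabra4, Gabrb1 and Gabbr1) each had an H3K27me3 peak in at least 1 brainstem control, and their control values overlapped between regions. Gabra4 and Gabrb1, which share a promoter region, had a peak in both brainstem controls. Both counted as bivalent in brainstem where every control culture had to hold the peak. The consensus asks for at least 2 cultures, of 2 in brainstem and of 3 in telencephalon, and the part of this in the count was not tested. Only Gabrg3 did not overlap in H3K27me3, with 100% and 84.1% in brainstem and 0%, 67.4% and 52.8% in telencephalon. That is 1 of 23 members (4.35%) higher in brainstem, against 2.48% of all tested genes, and 0 were higher in telencephalon, against 0.648%.

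H3K4me3 did not overlap between regions at Grm3 and Grin3a, both higher in brainstem, which is 6.25% of 32 members against 16.3% of all tested genes. None was higher in telencephalon, against 0.741%. Grm3 had 77.9% and 90.6% in brainstem and 60.2%, 60.2% and 70.4% in telencephalon controls. Grin3a, a glycine-binding NMDA subunit, had 29.3% and 28.41% against 25.9%, 25.8% and 28.36%, so that its groups were all but touching.

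Other genes of glutamate and GABA signalling were read in the same way. Of 38 accessory, scaffold, transporter and enzyme genes, 9 were bivalent in brainstem and 18 in telencephalon controls, against 9.67% and 14.3% of all genes. The telencephalon count rests on the same consensus as for the receptor genes and was not recomputed with a culture left out. H3K27me3 was in every library at 7, against 6.01% of all genes. It was in no library at 13, where 7422 of 20807 genes had it in at least 1. Promoter H3K27me3 was lower in K27M in 5 of 5 pairs at 6 of the 25 with a peak, against 13.6% of all tested genes, and 0 passed after adjustment. The median of the mean differences over the 25 with a peak was -12.2 percentage points, against -9.53 over the 23 receptor genes with a peak and -8.23 over all 7422 tested genes. No gene of the list was higher in 5 of 5 pairs, against 0.108% of all tested genes.

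Transporter and enzyme genes of the list differed among themselves. Slc32a1 and Slc17a6, vesicular transporters for GABA and glutamate, were covered at 100% on average in controls and in K27M, and Gad2, a GABA-synthesizing enzyme, at 100% and 98.8%. Slc17a7, another vesicular glutamate transporter gene, averaged 86.5% and 87.0%, while Slc17a8, of the same family, had the mark in 3 controls, at 11.2% on average, and in 0 K27M cultures. Gad1, the other GABA-synthesizing enzyme gene, averaged 52.2% in controls and 37.8% in K27M, lower in 4 of 5 pairs. Cacng2 (stargazin) and Cnih3, which escort AMPA receptors, averaged 72.0% and 66.1% in controls and 13.9% and 17.9% in K27M. The scaffold gene Dlg2 had the mark in 5 of 5 controls, at 16.4% on average, and in 0 of 5 K27M cultures. The glutamate uptake genes Slc1a1, Slc1a2 and Slc1a3 had H3K4me3 in 10 of 10 libraries, and H3K27me3 was called at Slc1a3 alone, in 2 controls and 0 K27M cultures.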

How the data were processed

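H3K27me3 and H3K4me3 were measured in 5 matched pairs of OPC cultures. The authors trimmed reads (Trim Galore 0.6.7), aligned them with BWA 0.7.17-r1188 to mm10, and called peaks with MACS2 2.2.7.1 in each library against its input, narrow for H3K4me3 and broad for H3K27me3. The deposited lists give each peak a fold enrichment over input (a ratio) and −log10 p and q values, and a score that was not used in any result. Neither read counts nor the Drosophila spike-in enter the lists, so a shift in the total amount of a mark is not measured here. Input samples had no peak list and were not analysed here.

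Promoters (2000 bp upstream to 1000 bp downstream of every transcript) came from GENCODE M21 on GRCm38, the mm10 assembly, where the study used a later release. For each gene the percent of promoter bases under peaks was computed with Python 3.11.15 and numpy, and a peak covering at least 1 bp counted as present. Control peaks were combined by the MSPC rule of the study (stringent and weak p of 1e-08 and 1e-04 for H3K27me3, 1e-10 and 1e-06 for H3K4me3). K27M was tested against control by exact permutation of the signs of the pair differences (sign-flip, two-sided) for every autosomal protein-coding gene with a peak in at least 1 library, adjusted by Benjamini-Hochberg over all of them. The functions were tested on simulated data.

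The pairing follows the matched cultures of the study. Deviations from the group means correlated between matched cultures at r = -0.11 in brainstem and 0.48, 0.37 and 0.03 in telencephalon for H3K27me3, and at 0.02 and 0.71, 0.39 and 0.47 for H3K4me3. Cultures are pools of animals, and p-values measure the spread between cultures.

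The genes and lists were chosen with earlier results of these data known. Values per library are given for members on one side of their control in 5 of 5 pairs, with a mark in every control and no K27M culture of a region or the reverse, without overlap between control regions, or among the 6 largest mean differences in H3K27me3, and for those stated as chosen after their values were seen. Alternatives covered peak strength, list length, overlap, window, transcripts, consensus, block and each culture left out.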

Additional observations from a re-analysis of the deposited data

How the results depend on the processing

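Of 64 summary values recomputed under other settings, 55 stayed within the spread between pairs or within 1.5 times the main count, and 9 did not. The 55 include sign-flip test counts that could only be 0, since 5 pairs allow no p under 0.05. No difference in H3K27me3 reversed, and the H3K4me3 difference of 0.2 genes ran from -0.5 to 0.5 with 1 culture left out. The mean difference in receptor genes with promoter H3K27me3, -5.8 genes with all peaks, was -2.6 with peaks of at least 3-fold enrichment and -1.6 with equal numbers of peaks. The 19 bivalent genes in telencephalon controls were 5 where every control culture had to hold the peak, and between 5 and 19 with 1 culture left out, since without culture 60 or 61 the consensus needed telencephalon control 59. The 14 bivalent genes in brainstem controls were 16 where every control culture had to hold the peak. The 4 genes lower in K27M in every pair were 1 with peaks of at least 3-fold enrichment (Gabra5), 1 by the best covered single window (Grm8), and between 4 and 9 with 1 culture left out, the 9 without telencephalon culture 59 and 7 without brainstem culture 61. The cause of these shifts was not tested beyond what each setting removes. With no replicate block 0 of 7422 genes passed for H3K27me3 and 0 of 14109 for H3K4me3, as with the matched pairing. Of 121 recomputed values for the 11 genes named by rule, 104 were below 0 and 115 did not move or moved by less than the spread between pairs. The 115 include those of Gria4, which had H3K27me3 in no library and so stayed at 0 under every setting. A bivalent count without a brainstem control could not be made, since 1 culture is left. Peak lists carry no depth, so absence of a peak says that none was called, not that the mark was absent.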
